A study of Mus musculus with 19 samples.

Results

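The collagens are the rows whose symbol reads Col, a type number, the letter a and a chain number, and there were 44 of them among the 24348 genes counted in each of 19 RNA sequencing libraries. They comprised 11 fibrillar collagens, 8 basement membrane collagens (the 6 type IV chains, Col15a1 and Col18a1) and 25 others. The libraries came from whole perigonadal adipose tissue, the fat around the gonads, of C57BL/6 mice made to gain weight on HFD 60%, a high-fat diet, or on ENSURE, a liquid food. HFD libraries carry ALO or ALOneg in their titles and Ensure libraries OIO or OIOneg. Mice were taken at peak weight, either fed or after food had been withheld for 24 hours (fasted below). This gave 4 HFD fed (libraries 21, 22, 25 and 27), 4 HFD fasted (23, 24, 26 and 28), 6 Ensure fed (1, 9, 10, 12, 16 and 18) and 5 Ensure fasted libraries (2, 5, 7, 8 and 17). The labels used here give neither sex nor age. They do not say whether each library was a separate mouse, and the spread that the p-values rest on is therefore that between libraries, which may be technical. Every HFD library was run in sequencing lane 7 while 10 of 11 Ensure libraries were run in lanes 5 and 6. Diet and lane therefore cannot be told apart for nearly all of the data.

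Collagens are secreted proteins whose chains wind into a triple helix. Fibrillar types I, III and V assemble into the tension-bearing fibres between cells, with type V chains setting fibril growth. Type IV forms the mesh of the basement membrane, the sheet that wraps every adipocyte and lines blood vessels. Types XV and XVIII sit at the outer face of that sheet, and type VI makes beaded filaments that tie it to the fibres. In fat, fibroblast-like stromal cells, vessel cells and adipocytes all make collagens, and the network has to yield as adipocytes fill or empty. In bulk tissue, fewer cells of a type and less RNA per cell cannot be told apart.

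Libraries held 12.82 to 22.55 M counts in genes, and levels are counts per M (CPM) with TMM scaling. The adipocyte list (8 genes, each detected) summed to 10277 CPM in Ensure fasted 5 and to 16583 to 27526 CPM in the other 18 libraries, so the defining genes of the labelled tissue were present. Genes of epididymis and sperm (a list of 15) reached summed levels of 220 to 11501 CPM in 5 libraries, namely HFD fasted 24, Ensure fed 10, Ensure fed 12, Ensure fasted 2 and Ensure fasted 5. The other 14 libraries stayed at 12.5 to 81.7 CPM. These 5 libraries are called tract-rich below. Epithelial genes of the tract were also high (362 to 454 CPM) in HFD fed 21, in HFD fasted 26 and in Ensure fed 16, and the 5 tract-rich libraries with these 3 make a wider set of 8. Ensure fed 10 and 12 belong to it by epididymis and sperm genes alone, at 54.5 and 48.6 CPM for the epithelial list. Ensure fed 1 (95.7 CPM) and Ensure fasted 17 (55.3 CPM) were above both for the epithelial list and stayed outside the set. Ensure fasted 5 stood furthest apart, with the top sums for smooth muscle (8791 CPM, 503 to 1189 CPM elsewhere) and for the epididymis and sperm list. Counts of collagens without these libraries are given beside the results. Without the wider set, HFD fed 22, 25 and 27, HFD fasted 23 and 28, Ensure fed 1, 9 and 18 and Ensure fasted 7, 8 and 17 remained. The groups were then smaller, and the reason for a lost call was not tested.

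Of the 44 collagens, 39 had enough counts to be tested (10 fibrillar, 8 basement membrane and 21 others). The 5 left out were Col2a1, Col9a1, Col9a2 and Col10a1, known from cartilage, and Col19a1, with 15 to 112 counts each over all libraries together. Per length of mRNA, the most abundant collagens over the 19 libraries were Col3a1 (mean 583 CPM per kb), the type IV chains Col4a1 (456) and Col4a2 (346), and the type VI chains Col6a2 (279) and Col6a1 (263). Next were Col1a2 (216), Col5a3 (193), Col15a1 (179) and Col1a1 (138 CPM per kb). Neighbours in this order had overlapping ranges over libraries. Neither the 5 untested collagens nor 15 of the tested ones exceeded a mean of 1.71 CPM per kb.

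As a sum, collagen mRNA was 1.79-fold higher in fed Ensure than in fed HFD fat and 2.03-fold higher in fasted Ensure than in fasted HFD fat. All 44 collagens together took 1.01 to 1.63% of gene counts in HFD libraries other than HFD fed 27 (0.992%), and 1.74 to 2.73% in Ensure libraries other than Ensure fasted 5 (1.30%). The fibrillar sum was 4649 ± 1075 CPM in HFD fed (SD, n = 4), 4197 ± 863 CPM after fasting with HFD (n = 4), 9594 ± 1465 CPM in Ensure fed (n = 6) and 9479 ± 2929 CPM in Ensure fasted libraries (n = 5). Feeding state moved that sum by less than the spread within groups. The basement membrane sum went from 5291 ± 1193 CPM fed to 3705 ± 649 CPM fasted with HFD and from 8997 ± 1255 to 7148 ± 1819 CPM with Ensure. The sum of the other collagens went from 2816 ± 919 to 2097 ± 142 CPM with HFD and from 4237 ± 822 to 3640 ± 765 CPM with Ensure. Fed and fasted libraries overlapped in each of these sums within each diet. The fed diets did not overlap in the fibrillar or the basement membrane sum, and overlapped in the sum of the others. Sums over members were given no test.

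**Figure D1:**
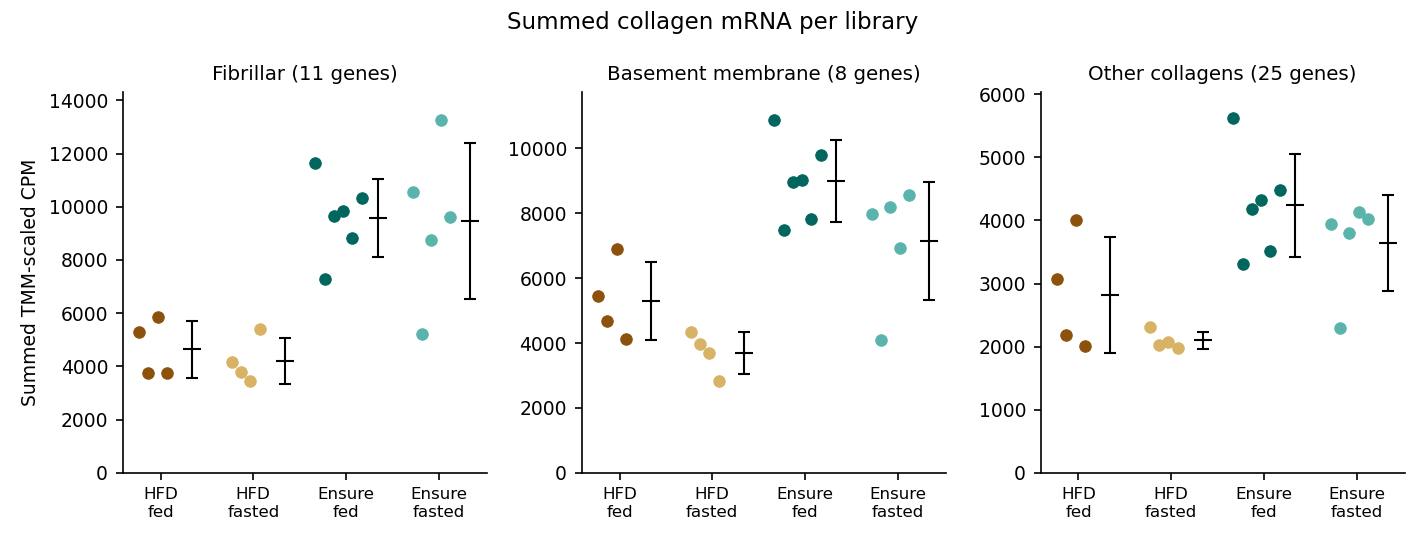
Summed TMM-scaled CPM (y axis) of fibrillar, basement membrane and other collagens in each library (points) by group (x axis), with mean and SD as black bars. The 6 Ensure fed libraries lay at 7295 to 11656 CPM for fibrillar collagens, above the 4 HFD fed libraries at 3736 to 5841 CPM, and Ensure fasted 5 was the lowest of its group in all 3 panels.

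The balance between the classes differed most in HFD fasted 28 and Ensure fasted 8. Fibrillar over basement membrane sums stood at 1.92 in both of these libraries and at 0.799 to 1.32 in the other 17. In the 2 libraries basement membrane collagens made up 27.6 and 28.5% of collagen CPM, against 35.3 to 44.1% elsewhere. Both also had the highest macrophage sum of their group (3456 and 2639 CPM, with 874 to 2284 and 586 to 1757 CPM in the rest of their groups). Their endothelial sums were 1042 and 1183 CPM, the lowest and second lowest of their groups. HFD fasted 28 also had the highest shares of reads without a unique alignment (27.7%) and outside genes (17.32%) of all libraries. Ensure fasted 5 was next (25.97 and 16.58%), whereas Ensure fasted 8 was at 21.87 and 14.4%. The part of either cell type or of these read shares in the balance was not tested.

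The first question was which collagens differed between the 2 models while the mice were fed. In edgeR's quasi-likelihood test with Benjamini-Hochberg adjustment over all genes, 7 of 39 collagens were called higher in Ensure fed than in HFD fed libraries (17.9%, against 2.09% of all genes tested) and 0 were called lower (2.17%; either direction 4.26% of all genes). They were the fibre chains Col1a1, Col3a1 and Col5a3, the type IV chains Col4a1, Col4a2 and Col4a5, and Col8a1, a short-chain collagen of vessel walls. The 2 groups did not overlap for 10 collagens on the higher side (5.89% of all genes) and for 1 on the lower side, Col20a1 (7.37%). The median log2 fold change was 0.61 over 10 fibrillar, 0.76 over 8 basement membrane and 0.07 over 21 other collagens, beside -0.04 over all genes. At an unadjusted p under 0.05 there were 15 collagens, beside 2981 of 16015 genes. DESeq2 called 12 higher and 0 lower, with 5.66% and 4.03% of all genes. Limma voom called 16 higher and 1 lower, with 15.1% and 18.9% of all genes. Leaving out HFD fed 22 or 27 left 1 of the 7 edgeR calls, that of Col5a3, and leaving out Ensure fed 1 left 2. In that order these fits called 130, 139 and 202 genes higher, beside 335 with all libraries.

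Col3a1, the type III chain that shares fibres with type I, was at 2013, 1165, 2395 and 1286 CPM in the HFD fed libraries 21, 22, 25 and 27. In Ensure fed libraries its lowest value was 3100, its median 4418 and its highest 5364 CPM. Every Ensure fed library was above every HFD fed library, and the log2 fold change was 1.33 ± 0.28 (SE; edgeR adjusted p = 0.0133). Col1a1, the first chain of type I, was at 602, 325, 574 and 361 CPM in HFD fed and at 622 (lowest), 967 (median) and 1295 CPM (highest) in Ensure fed libraries. These ranges came close without overlapping, and the log2 fold change was 1.05 ± 0.25 (edgeR adjusted p = 0.0246). Col1a2, the chain that pairs with it, was at 660 to 937 CPM against 814 to 1563 CPM, overlapping, and was not called (log2 fold change 0.64 ± 0.21, edgeR adjusted p = 0.09).

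Col5a3, the third type V chain, was at 848, 898, 986 and 650 CPM in HFD fed libraries and at 1635 (lowest), 1784 (median) and 2061 CPM (highest) in Ensure fed libraries. The lowest Ensure fed value was well above the highest HFD fed value. Its log2 fold change was 1.10 ± 0.20 (edgeR adjusted p = 0.00552), and its call held when any 1 library was left out. The other type V chains, Col5a1 (398 to 644 against 653 to 956 CPM) and Col5a2 (269 to 406 against 392 to 578 CPM), were not called (edgeR adjusted p = 0.0793 and 0.235).

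Col4a1 and Col4a2 encode the chains of the common type IV trimer and lie head to head on chromosome 8. Their RefSeq windows from 250 bases before to 50 after the annotated start are shown because the genes moved together in every group: the starts lie 21 bases apart on opposite strands and the windows share 78 bases, each read on its own strand. In GRCm38.p6 the Col4a1 window is chr8:11312777-11313076 (minus strand) and the Col4a2 window chr8:11312555-11312854 (plus strand). Capitals mark the letters CCAAT or, where it lies on the other strand, ATTGG.
Col4a1: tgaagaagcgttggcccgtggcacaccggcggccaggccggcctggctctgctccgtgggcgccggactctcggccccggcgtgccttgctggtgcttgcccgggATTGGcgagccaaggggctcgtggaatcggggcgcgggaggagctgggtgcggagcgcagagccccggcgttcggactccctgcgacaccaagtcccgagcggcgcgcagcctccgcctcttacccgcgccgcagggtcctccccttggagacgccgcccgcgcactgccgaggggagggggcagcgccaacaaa
Col4a2: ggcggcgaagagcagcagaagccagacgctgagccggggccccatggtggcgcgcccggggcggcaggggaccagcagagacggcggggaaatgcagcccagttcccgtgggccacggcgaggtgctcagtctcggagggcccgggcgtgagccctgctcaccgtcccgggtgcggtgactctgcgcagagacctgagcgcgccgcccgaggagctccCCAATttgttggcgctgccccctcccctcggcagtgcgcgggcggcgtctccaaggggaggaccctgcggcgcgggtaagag
Each window held 1 CCAAT. Over all 32851 promoters of this length in the table, 37.4% held it on either strand, and 13 of 38 windows of 35 collagens did (34.2%). GGGCGG was in 23 of the 38 windows (60.5%, all promoters 35.7%) and TATAAA in 5 (13.2%, all promoters 13.6%). Such a match describes letters and is no evidence of binding.

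Col4a1 was at 2327, 2001, 2982 and 1815 CPM in HFD fed libraries and at 3364 (lowest), 4056 (median) and 5004 CPM (highest) in Ensure fed libraries. Col4a2 was at 1734, 1383, 2200 and 1244 CPM against 2417 (lowest), 3039 (median) and 3763 CPM (highest). For both chains the groups did not overlap, and HFD fed 25 was the highest of the HFD fed libraries. The log2 fold changes were 0.84 ± 0.21 and 0.89 ± 0.22 (edgeR adjusted p = 0.0336 and 0.0318). Col4a5, an X-linked type IV chain of specialised basement membranes, was at 31.2 to 37.5 CPM in HFD fed and at 45.1 (lowest), 70.0 (median) and 80.4 CPM (highest) in Ensure fed libraries (log2 fold change 0.97 ± 0.23, edgeR adjusted p = 0.0236). Col4a3, Col4a4 and Col4a6, the other specialised chains, were at or below 36.7 CPM in all fed libraries, overlapped and were not called (edgeR adjusted p = 0.621 to 0.739).

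Of the outer basement membrane collagens, Col15a1 did not overlap between fed diets (679 to 1202 against 1272 to 1573 CPM) but was not called (log2 fold change 0.60 ± 0.21, edgeR adjusted p = 0.114). Col18a1, whose end fragment is endostatin, was at 338 to 460 against 287 to 424 CPM, overlapping (log2 fold change -0.09 ± 0.13, edgeR adjusted p = 0.807). The type VI chains Col6a1, Col6a2 and Col6a3, the last of which gives the fragment endotrophin, had log2 fold changes of 0.52 to 0.72 and were not called (edgeR adjusted p = 0.108 to 0.193). Col8a1 was at 21.2 to 26.6 CPM in HFD fed and at 33.1 (lowest), 36.7 (median) and 45.5 CPM (highest) in Ensure fed libraries (log2 fold change 0.68 ± 0.18, edgeR adjusted p = 0.0449). Col14a1, which coats type I fibrils, did not overlap either (65.7 to 98.0 against 130 to 240 CPM; log2 fold change 1.26 ± 0.37, edgeR adjusted p = 0.0646), whereas Col12a1, a related coat collagen, did (17.8 to 82.1 against 43.0 to 81.0 CPM).

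Among fasted libraries, 10 of 39 collagens were called higher with Ensure (25.6%, against 1.63% of all genes tested) and 0 lower (1.19%, either direction 2.82%) by edgeR. There were 20 at an unadjusted p under 0.05, beside 3253 of 16015 genes. DESeq2 called 16 higher and 0 lower, with 4.55% and 3.54% of all genes. Limma voom called 19 higher and 4 lower, with 12.9% and 8.4% of all genes. Called were Col1a1, Col3a1, Col5a1 and Col5a3 among fibrillar, Col4a1, Col4a2 and Col4a5 among basement membrane, and Col6a2, Col14a1 and Col28a1 among other collagens. Groups did not overlap on the higher side for 3 collagens (2.51% of all genes) and on the lower side for 0 (1.48%), and the median log2 fold change over all 39 was 0.81, beside 0.02 over all genes. The fasted levels come from other libraries than the fed ones, but the spread was estimated in 1 fit of all 19 libraries and the lanes divide the diets in the same way.

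Col3a1 was at 1642, 1487, 1305 and 2373 CPM in HFD fasted libraries 23, 24, 26 and 28 and at 4949, 2164, 3975, 6534 and 4545 CPM in Ensure fasted libraries 2, 5, 7, 8 and 17. Ensure fasted 5 alone lay within the HFD fasted range (log2 fold change 1.38 ± 0.29, edgeR adjusted p = 0.0189). Col1a1 was at 463, 478, 390 and 671 CPM against 1515, 892, 882, 1664 and 983 CPM, without overlap (1.25 ± 0.26, edgeR adjusted p = 0.0183). Col5a3 was at 530, 520, 443 and 555 CPM against 1210, 598, 1460, 1415 and 1434 CPM, again without overlap although Ensure fasted 5 came near (1.26 ± 0.20, edgeR adjusted p = 0.0049). Col4a5 was the third collagen without overlap, at 19.4 to 52.4 CPM against 69.5 to 109 CPM (1.09 ± 0.24, edgeR adjusted p = 0.0215).

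Type VI collagen, which surrounds each adipocyte, was the most abundant of the other collagens. Col6a1, its first chain, was at 999, 823, 1347 and 672 CPM in HFD fed, 709, 600, 621 and 721 CPM in HFD fasted, 1063 (lowest), 1373 (median) and 1844 CPM (highest) in Ensure fed and 1156, 635, 1290, 1344 and 1300 CPM in Ensure fasted libraries. Col6a2, the second chain, was at 989, 717, 1390 and 580 CPM, then 661, 551, 577 and 507 CPM, then 1212 (lowest), 1473 (median) and 2011 CPM (highest), then 1306, 658, 1330, 1301 and 1429 CPM in the same groups. Fed and fasted libraries overlapped in either diet for both chains, and HFD fed 25 was within the Ensure fed range for both. Col6a2 was called between fasted diets (log2 fold change 1.07 ± 0.25, edgeR adjusted p = 0.0289), and Col6a1 was not (0.79, edgeR adjusted p = 0.0676). Col6a3 was at 293 to 741 CPM in HFD fed, 270 to 393 CPM in HFD fasted, 536 to 1078 CPM in Ensure fed and 310 to 660 CPM in Ensure fasted libraries and was called in none of the comparisons (lowest edgeR adjusted p = 0.152). Type VI chains took 17.0 to 22.1% of collagen CPM in HFD and 14.3 to 18.3% in Ensure libraries.

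For Col4a1 (1251 to 2008 against 1849 to 4263 CPM) and Col4a2 (893 to 1463 against 1397 to 3099 CPM) Ensure fasted 5 was again the Ensure library within the HFD range. Their log2 fold changes were 1.01 ± 0.22 and 1.07 ± 0.23 (edgeR adjusted p = 0.0232 and 0.0212). The same library was the lowest of its group for Col5a1, at 337, 281, 284 and 258 CPM in HFD fasted and 621, 267, 589, 697 and 636 CPM in Ensure fasted libraries (0.95 ± 0.22, edgeR adjusted p = 0.0291). It was also the lowest for Col14a1, at 100, 108, 109 and 32.8 CPM against 149, 89.8, 308, 382 and 299 CPM (1.49 ± 0.39, edgeR adjusted p = 0.0471), a call lost in 16 of the 19 fits that left out 1 library. Col28a1, described in mice in basement membranes around peripheral nerve, was at 7.26, 5.91, 9.57 and 5.75 CPM in HFD fasted and at 21.3, 12.1, 14.6, 9.29 and 23.0 CPM in Ensure fasted libraries, where Ensure fasted 8 alone was within the HFD range (1.17 ± 0.24, edgeR adjusted p = 0.0158). Without the 5 tract-rich libraries, 11 collagens were called higher among fasted and 7 among fed libraries, and without the wider set of 8 libraries 11 and 3. The counts over all genes were 434 and 292 higher of 15553 without the 5, and 667 and 115 of 15257 without the 8. With all libraries they were 261 and 335 of 16015.

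**Figure D2:**
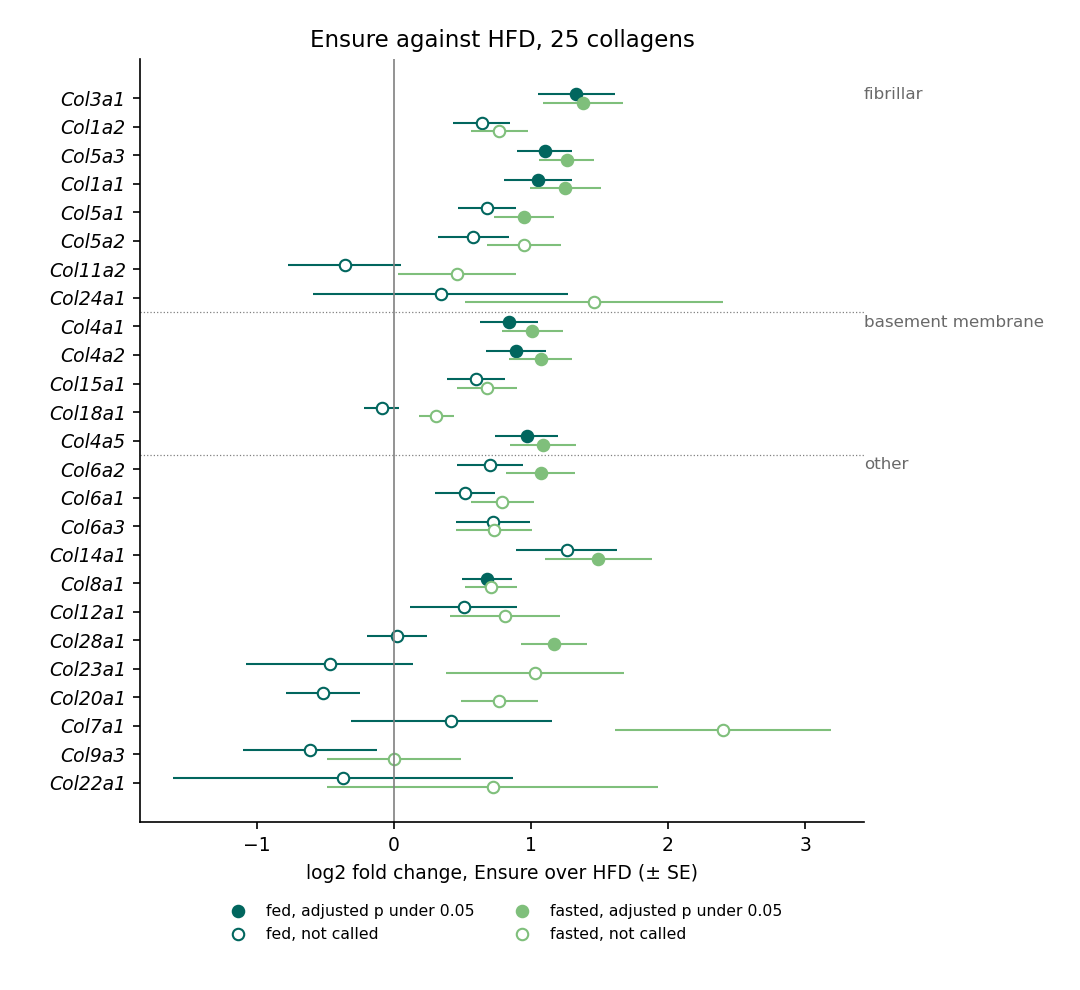
The log2 fold change of Ensure over HFD (x axis, with SE as bars) for 25 collagens (rows, by class) among fed and among fasted libraries, filled where edgeR's adjusted p was under 0.05. Col3a1 had 1.33 fed and 1.38 fasted, and Col5a3 1.10 and 1.26.

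With sequencing lane as a term in the model, 0 collagens were called between diets, fed or fasted, so all 7 and all 10 calls were lost (edgeR adjusted p = 0.812 to 1.0). Over all genes that fit called 2 of 16015 fed and 0 fasted, so the loss was not particular to collagens. The fed and fasted log2 fold changes in that fit were 1.44 and 1.42 for Col3a1, 1.17 and 1.40 for Col5a3, and 0.72 and 0.60 for Col4a5. That fit rests the diet difference on Ensure fed 18, the one Ensure library of lane 7. In Ensure fed 18, 25 of 39 collagens were above the HFD fed mean on the log scale (42.7% of all genes), and 16 were above all 4 HFD fed libraries of the same lane (19.8% of all genes). No within-lane comparison of diets could be made among fasted libraries. With the compared groups alone in the fit, the count among fed libraries was 12 and among fasted libraries 0. Genes of any kind called there were 1443 higher and 1490 lower of 14838 fed, and 0 higher and 1 lower of 15431 fasted.

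Of the cell-type lists, the stromal list (10 genes, each detected) summed to 1478 to 1771 CPM in HFD fed and 1372 to 1660 CPM in Ensure fed libraries, and 1 of its 10 genes was called, lower. The macrophage list (9 genes) summed to 1059 to 1840 against 976 to 1755 CPM, but 1 of its genes was called lower with Ensure: Trem2, a receptor of lipid-handling macrophages, was at 41.3 to 120 CPM in HFD fed and 6.31 to 20.5 CPM in Ensure fed libraries (log2 fold change -3.07 ± 0.79, edgeR adjusted p = 0.0364). Cd68, a general macrophage marker, did not overlap either (124 to 301 against 59.4 to 105 CPM, edgeR adjusted p = 0.16). Over the 9 macrophage genes, 5 log2 fold changes were above 0 and 4 below, with a median of 0.14. The sum of the skeletal muscle list did not overlap, at 29.5 to 40.2 CPM in HFD fed and 43.5 to 65.5 CPM in Ensure fed libraries. Its genes did not go 1 way. Of the 7 tested, 3 had log2 fold changes above 0 and 4 below, with a median of -0.29 and 0 called. Acta1 alone had means of 12.6 CPM in HFD fed and 31.1 CPM in Ensure fed libraries. The endothelial list (9 genes) summed to 1397 to 1951 against 1492 to 2093 CPM and had 0 genes called by edgeR (1 at an unadjusted p under 0.05) and 0 by DESeq2. Among fasted libraries the stromal sum ran from 1374 to 1720 CPM with HFD and from 1136 to 2204 CPM with Ensure, where Ensure fasted 7, 8 and 17 were at 1973 to 2204 CPM. In the same comparison 8 of 10 smooth muscle genes had an unadjusted p under 0.05 (median log2 fold change 1.97; 0 called by edgeR, 2 by DESeq2 and 0 by limma voom), with the sum at 8791 CPM in Ensure fasted 5 and 697 to 1189 CPM in the other Ensure fasted libraries. The part of these cell types in the collagen results was not tested.

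The genes that build and bind collagens were counted from lists of other roles. Of 21 folding and modification genes, 3 were called higher in Ensure fed fat and 0 lower, beside 2.09% and 2.17% of all genes. They were Serpinh1, the collagen-specific chaperone HSP47, Sec23a, a coat protein that carries procollagen out of the endoplasmic reticulum, and Kdelr3, a retrieval receptor. Serpinh1 was at 801, 594, 1144 and 605 CPM in HFD fed and at 1124 (lowest), 1509 (median) and 1761 CPM (highest) in Ensure fed libraries (log2 fold change 0.95 ± 0.24, edgeR adjusted p = 0.0313). HFD fed 25, which was also the highest HFD fed library for Col3a1, Col4a1 and Col5a3, overlapped the Ensure range. Of 16 collagen-binding matrix partners, Postn (1.51 ± 0.36) and Emilin1 (0.48 ± 0.12), which bind collagen and elastic fibres, were higher in Ensure fed fat (edgeR adjusted p = 0.0249 and 0.0367). Dcn, the small proteoglycan decorin that coats collagen fibrils, went the other way, at 1575 to 2037 CPM in HFD fed and 862 to 1088 CPM in Ensure fed libraries (-0.84 ± 0.14, edgeR adjusted p = 0.00415), and at 1583 to 2225 against 859 to 1419 CPM among fasted libraries (-0.62 ± 0.15, edgeR adjusted p = 0.0354). Among fasted libraries edgeR called 0 folding genes, with 10 at an unadjusted p under 0.05, 6 called higher by DESeq2 and 14 by limma voom. Over all genes 3253 of 16015 had an unadjusted p under 0.05, and DESeq2 and limma voom called 4.55% and 12.9% higher.

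Of 16 basement membrane partners, 1 was called higher in each state, beside 2.09% of all genes fed and 1.63% fasted. Among fed libraries it was Nid2, a nidogen that links laminin to type IV collagen (0.91 ± 0.25, edgeR adjusted p = 0.0445). Among fasted ones it was Lamb2, a laminin chain (0.70 ± 0.16, edgeR adjusted p = 0.0269). EdgeR called 0 of 9 procollagen processing, 0 of 5 cross-linking, 0 of 11 receptor and uptake and 0 of 18 TGF-beta genes between diets in either state. At an unadjusted p under 0.05 these lists had 5, 2, 1 and 6 genes among fed and 4, 3, 3 and 10 among fasted libraries. Of all 16015 genes, 2981 fed and 3253 fasted were under that limit. DESeq2 called 3, 1, 0 and 2 of them higher and 0 lower among fed libraries, and 3, 1, 1 and 1 higher and 0, 0, 0 and 2 lower among fasted ones. Limma voom called 6, 4, 4 and 3 higher and 0, 0, 2 and 4 lower among fed libraries, and 4, 3, 2 and 3 higher and 0, 0, 0 and 2 lower among fasted ones. Over all genes DESeq2 called 5.66% higher and 4.03% lower fed, and 4.55% higher and 3.54% lower fasted. The limma voom shares were 15.1% higher and 18.9% lower fed, and 12.9% higher and 8.4% lower fasted.

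The second question was what 24 hours without feeding changed. With HFD, edgeR called 1 of 39 collagens lower (2.56%, against 1.03% of all genes tested) and 0 higher (0.187%; either direction 1.22%). Groups did not overlap on the lower side for 5 collagens (6.21% of all genes), namely Col15a1, Col18a1, Col5a1, Col5a3 and Col28a1, and on the higher side for 1, Col6a4 (2.24%). At an unadjusted p under 0.05 there were 10 collagens, beside 2375 of 16015 genes. DESeq2 called the 5 collagens that did not overlap on the lower side, all lower, and 0 higher, with 2.95% of all genes lower and 1.04% higher. Limma voom called 5 lower and 5 higher, with 11.3% and 7.32% of all genes. The median log2 fold change was 0.15 over fibrillar, -0.11 over basement membrane and 0.32 over other collagens, beside 0.06 over all genes.

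Col15a1, a collagen that links the basement membrane to the fibres beyond it, was at 944, 865, 1202 and 679 CPM in HFD fed and at 530, 463, 460 and 389 CPM in HFD fasted libraries. The highest fasted value was below the lowest fed value, and the log2 fold change was -1.0 ± 0.23 (edgeR adjusted p = 0.0376). The call was lost in 14 of the 19 fits that left out 1 library, where the log2 fold change was -1.11 to -0.85 (highest edgeR adjusted p = 0.176). Col18a1, of the same family, went from 338 to 460 CPM to 257 to 287 CPM (-0.49 ± 0.14, edgeR adjusted p = 0.104). Col5a1 went from 398 to 644 CPM to 258 to 337 CPM and Col5a3 from 650 to 986 CPM to 443 to 555 CPM, without overlap (-0.78 ± 0.23 and -0.72 ± 0.21, edgeR adjusted p = 0.121 and 0.111). The chains of the main fibres differed less between fed and fasted HFD libraries, with log2 fold changes of 0.11 for Col1a1, 0.19 for Col1a2 and -0.01 for Col3a1. Col12a1 had -0.34 with HFD and -0.04 with Ensure and was called in none of the comparisons.

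With Ensure, edgeR called 2 of 39 collagens lower (5.13%, against 9.77% of all genes tested) and 7 higher (17.9%, against 10.6%), beside 20.3% of all genes called in either direction. DESeq2 called 8 higher and 3 lower, with 14.8% and 12.6% of all genes, and limma voom 5 higher and 3 lower, with 18.7% and 16.5%. Limma voom kept 6 of the 9 edgeR calls and the fit without a filter 7. Groups did not overlap on the higher side for 3 collagens (5.68% of all genes) and on the lower side for 2 (9.28%). The 2 that fell were again Col15a1, and Col5a3. Col15a1 was at 1272 (lowest), 1369 (median) and 1573 CPM (highest) in Ensure fed and at 803, 355, 896, 889 and 748 CPM in Ensure fasted libraries. Fed and fasted libraries lay far apart, with Ensure fasted 5 the lowest (-0.93 ± 0.20, edgeR adjusted p = 0.00366). Its call held when any 1 library was left out, with lane as a term (-0.98, edgeR adjusted p = 0.0443) and without the 5 tract-rich libraries (-0.73, edgeR adjusted p = 0.0286), and was lost without the wider set of 8 (-0.77, edgeR adjusted p = 0.0656). Within lane 5 fasted minus fed was -1.19 on the log2 scale (4 against 1 library) and within lane 6 -0.85 (1 against 4).

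Col5a3 was at 1635 (lowest), 1784 (median) and 2061 CPM (highest) in Ensure fed and at 1210, 598, 1460, 1415 and 1434 CPM in Ensure fasted libraries. The groups did not overlap (-0.56 ± 0.18, edgeR adjusted p = 0.0368), but the call was lost with lane as a term (-0.49, edgeR adjusted p = 0.29), without the tract-rich libraries (-0.33, edgeR adjusted p = 0.163) and without Ensure fed 1, 10 or 12 singly. Without Ensure fasted 5, which held the lowest level of both genes, the log2 fold changes were -0.80 for Col15a1 and -0.44 for Col5a3 and both calls held. The promoter windows of these 2 genes are shown because they were the collagens called lower after fasting, in GRCm38.p6 at chr4:47207762-47208061 (Col15a1, plus strand) and chr9:20815018-20815317 (Col5a3, minus strand), with CCAAT in capitals.
Col15a1: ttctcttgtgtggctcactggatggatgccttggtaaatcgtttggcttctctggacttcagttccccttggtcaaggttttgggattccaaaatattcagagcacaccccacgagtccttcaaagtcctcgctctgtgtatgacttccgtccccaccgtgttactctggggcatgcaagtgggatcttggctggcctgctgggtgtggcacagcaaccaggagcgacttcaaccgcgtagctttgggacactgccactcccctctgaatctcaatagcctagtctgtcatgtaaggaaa
Col5a3: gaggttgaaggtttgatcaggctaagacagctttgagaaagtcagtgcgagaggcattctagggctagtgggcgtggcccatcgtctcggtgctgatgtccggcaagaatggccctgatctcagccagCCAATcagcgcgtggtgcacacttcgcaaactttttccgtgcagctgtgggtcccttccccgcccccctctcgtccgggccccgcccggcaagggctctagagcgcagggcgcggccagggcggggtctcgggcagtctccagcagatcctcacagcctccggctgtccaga
The Col5a3 window held 1 CCAAT and the Col15a1 window held no match to CCAAT on either strand.

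No collagen was called for a difference between the 2 fasting responses by edgeR (0 of 39 and 0 of all genes, 0%). At an unadjusted p under 0.05 were 3 collagens, beside 1234 of 16015 genes, so the share among collagens was not higher. DESeq2 called 0 collagens, with 0.187% of all genes higher and 0.219% lower. Limma voom with quality weights called 3 higher with Ensure (Col11a2, Col20a1 and Col28a1) and 0 lower, with 5.47% and 1.84% of all genes, so that count was near the background. For Col15a1 the difference was 0.08 ± 0.30, and for Col5a3 0.16 ± 0.28 on the log2 scale. Col28a1 had 1.15 ± 0.32 (edgeR adjusted p = 0.459), from 10.6 to 15.1 CPM fed and 5.75 to 9.57 CPM fasted with HFD, and from 12.0 to 17.4 CPM fed and 9.29 to 23.0 CPM fasted with Ensure.

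**Figure D3:**
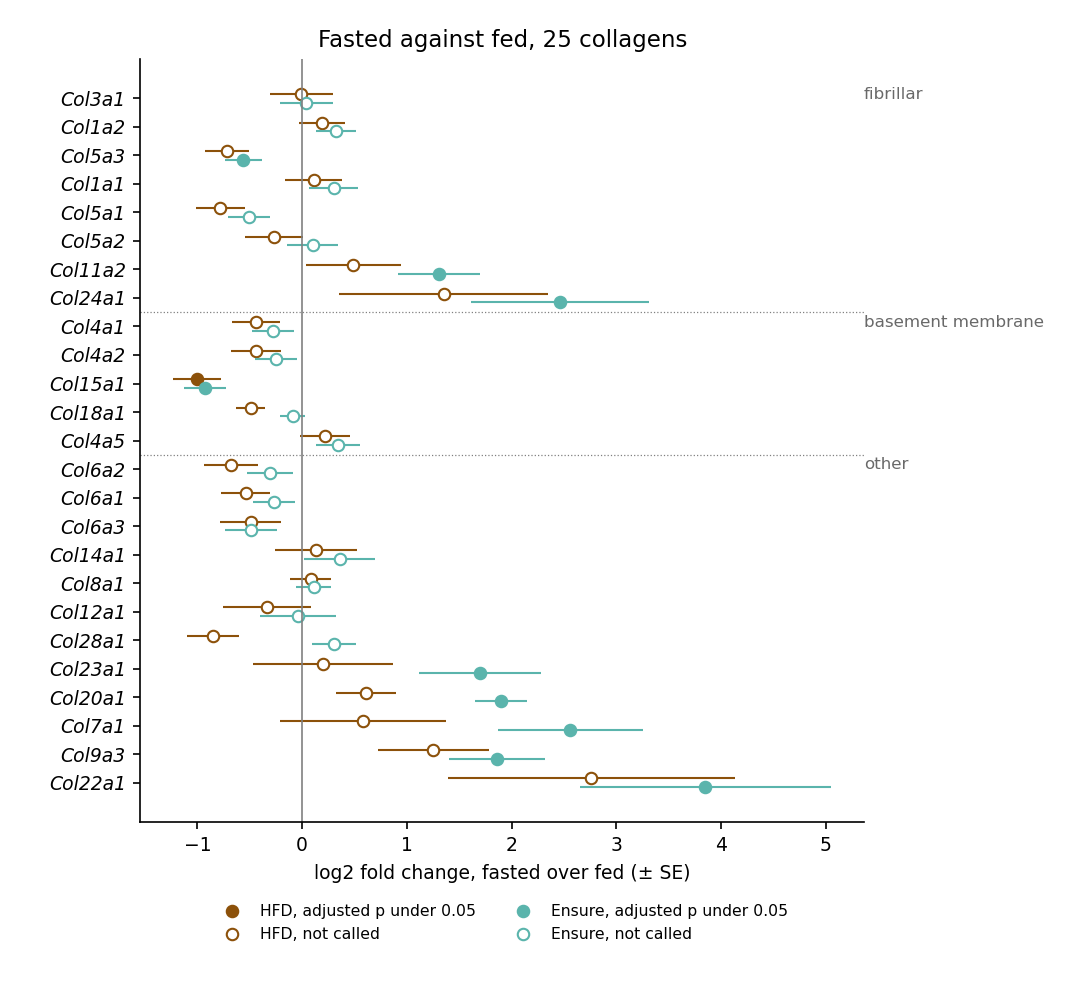
The log2 fold change of fasted over fed (x axis, with SE as bars) for 25 collagens (rows, by class) with HFD and with Ensure, filled where edgeR's adjusted p was under 0.05. Col15a1 was called in both diets (-1.0 and -0.93), and the collagens called higher with Ensure were among the scarcest.

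The 7 collagens that rose after fasting with Ensure were scarce ones: Col7a1, which forms anchoring fibrils under epithelia, the cartilage-type chains Col9a3 and Col11a2, the fibril-associated Col20a1 and Col22a1, the transmembrane Col23a1 and the minor fibrillar chain Col24a1. Their mean levels over the libraries were 0.118 to 2.6 CPM per kb. Col7a1 was at 1.04 (lowest), 1.31 (median) and 2.31 CPM (highest) in Ensure fed and at 3.85, 33.6, 1.45, 1.65 and 2.03 CPM in Ensure fasted libraries. Its high value was that of Ensure fasted 5, the library with the highest epididymis and smooth muscle sums, and without that library the call was lost (log2 fold change 2.56 with it and 0.60 without, edgeR adjusted p = 0.0154 and 0.246). Col23a1 likewise was at 91.5 CPM in Ensure fasted 5, 17.8 CPM in Ensure fasted 2 and 5.60 to 9.09 CPM in the other 3, with 5.23 to 11.8 CPM fed. Its log2 fold change of 1.70 ± 0.58 (edgeR adjusted p = 0.0469) became 0.30 without Ensure fasted 5.

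Col22a1, found at muscle-tendon junctions, was at 15.2 CPM in Ensure fasted 2, 3.45 CPM in Ensure fasted 5 and 0.0659 to 0.812 CPM in the other 3, with 0.0494 to 0.564 CPM fed. It was also at 8.43 CPM in HFD fasted 24, another tract-rich library, and at 0.152 to 0.598 CPM in libraries 23, 26 and 28. Its 3 highest values were thus in tract-rich libraries, although Ensure fed 10 and 12 were at 0.564 and 0.0494 CPM. The log2 fold change of 3.85 ± 1.20 (edgeR adjusted p = 0.032) was 2.09 without Ensure fasted 2, where the call was lost. Col24a1 was at 1.40, 5.85, 0.241, 1.52 and 0.913 CPM fasted and 0.0517 to 1.33 CPM fed (2.46 ± 0.85, edgeR adjusted p = 0.0488), and its call was lost in 14 of 19 fits that left out 1 library.

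Col9a3 was at 0.247 (lowest), 0.303 (median) and 0.414 CPM (highest) in Ensure fed and at 2.45, 1.65, 0.662, 0.527 and 0.761 CPM in Ensure fasted libraries, without overlap but with the 2 tract-rich libraries highest (1.86 ± 0.46, edgeR adjusted p = 0.00967). Col11a2 was at 0.308 to 1.23 CPM fed and 1.45 to 2.24 CPM fasted, without overlap (1.31 ± 0.39, edgeR adjusted p = 0.0246). Both calls were lost without the tract-rich libraries and with lane as a term. Col20a1 was the exception. It was at 1.83 (lowest), 2.62 (median) and 3.11 CPM (highest) in Ensure fed and at 9.24, 9.30, 8.19, 7.97 and 13.4 CPM in Ensure fasted libraries, with the tract-rich libraries in the middle of their group. Its log2 fold change was 1.90 ± 0.25 (edgeR adjusted p = 1.15e-04), its call held in each of the 29 alternative fits that tested it (1.75 to 2.07, highest edgeR adjusted p = 0.0176), and within lanes 5 and 6 it was 1.34 and 2.27. With HFD it was at 3.31, 3.15, 3.25 and 5.07 CPM fed and 4.46, 5.00, 3.20 and 9.97 CPM fasted, overlapping (0.61 ± 0.29, edgeR adjusted p = 0.34). The difference between the diets' responses was 1.28 ± 0.38 (edgeR adjusted p = 0.495).

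**Figure D4:**
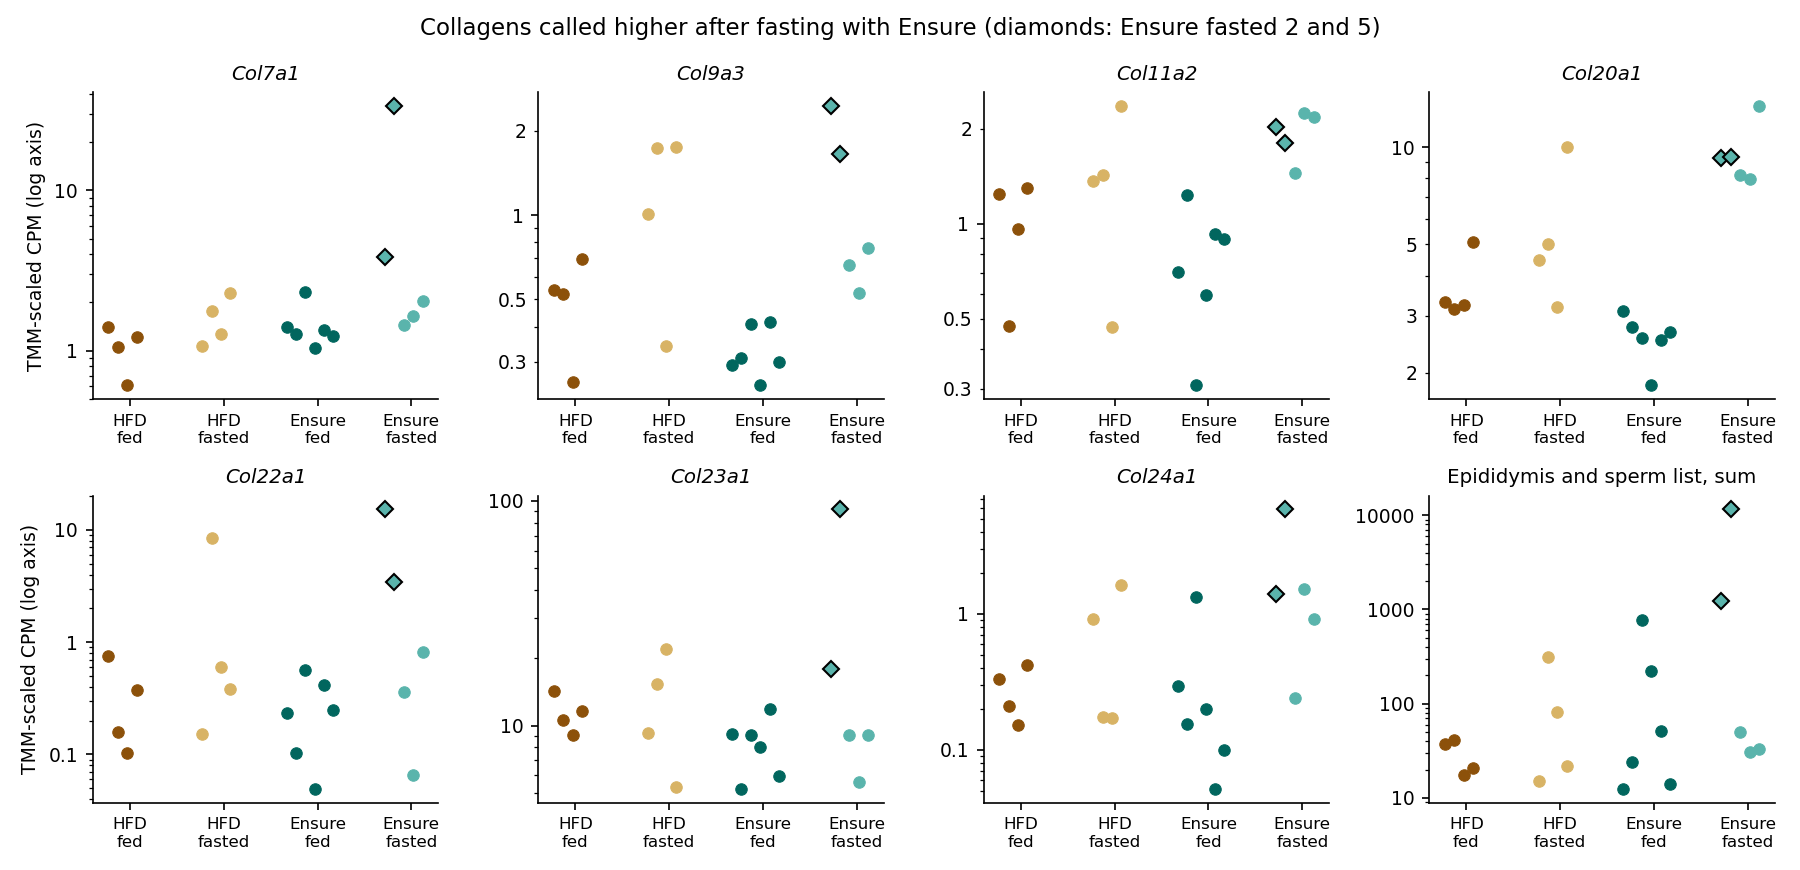
TMM-scaled CPM on a log axis (y) of the 7 collagens called higher after fasting with Ensure and the sum of the epididymis and sperm list, in each library by group (x), with Ensure fasted 2 and 5 as diamonds. Col7a1 and Col23a1 were highest in Ensure fasted 5 (33.6 and 91.5 CPM), whereas Col20a1 was at 7.97 to 13.4 CPM in all 5 Ensure fasted libraries.

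Without the 5 tract-rich libraries, edgeR called 2 collagens after fasting with Ensure (Col20a1 higher and Col15a1 lower) and 2 with HFD (Col15a1 and Col5a3, both lower). Among all genes, that fit called 503 higher and 642 lower of 15553 with Ensure, and 18 and 125 with HFD. With all libraries the Ensure counts were 1690 and 1565 of 16015. Without the wider set of 8 libraries it called Col20a1 with Ensure and 1 collagen lower with HFD. With lane as a term the counts were 2 with Ensure (Col20a1 and Col15a1) and 0 with HFD. That fit called 260 genes higher and 500 lower of 16015 with Ensure, and 10 and 52 with HFD.

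Of the genes around the collagens, edgeR called 0 in any of the 7 lists after fasting with HFD. The lists had 7 of 21 folding, 1 of 9 processing, 1 of 5 cross-linking, 1 of 16 matrix-binding, 3 of 16 basement membrane, 0 of 11 receptor and 4 of 18 TGF-beta genes at an unadjusted p under 0.05. Of all genes, 2375 of 16015 were under that limit. DESeq2 called 3 folding genes and 1 basement membrane gene lower and 1 TGF-beta gene higher. Limma voom called 0, 0, 1, 0, 2, 0 and 4 higher and 3, 0, 0, 0, 4, 1 and 2 lower in the 7 lists in that order. Over all genes DESeq2 called 1.04% higher and 2.95% lower, and limma voom 7.32% and 11.3%. With Ensure, 4 of 21 folding genes fell and 1 rose, beside 9.77% of all genes called lower and 10.6% called higher. The same shares apply to the other lists in this comparison. Serpinh1 went from 1124 (lowest), 1509 (median) and 1761 CPM (highest) fed to 630, 385, 880, 903 and 895 CPM fasted, without overlap (-1.04 ± 0.22, edgeR adjusted p = 0.00369). With HFD it was at 594 to 1144 CPM fed and 370 to 536 CPM fasted, also without overlap, and was not called. Sec23a (-0.58 ± 0.11, edgeR adjusted p = 0.00137) and Tmem38b, an endoplasmic reticulum ion channel needed for collagen synthesis (-0.72 ± 0.21, edgeR adjusted p = 0.0231), fell, and P3h4, a partner of the collagen lysine hydroxylase, rose (0.65 ± 0.16, edgeR adjusted p = 0.00898).

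Nid2, from the basement membrane partners, fell with Ensure from 259 to 475 CPM to 89.9 to 216 CPM (-1.02 ± 0.23, edgeR adjusted p = 0.00523), and its levels with HFD were 143 to 252 CPM fed and 62.9 to 118 CPM fasted. The laminin chain Lama3 (1.04 ± 0.27) and the proteoglycan Agrn (0.55 ± 0.16) rose (edgeR adjusted p = 0.0128 and 0.0231). Among matrix-binding genes Thbs2 (1.58 ± 0.32) and Thbs1 (1.19 ± 0.39), which are thrombospondins, rose (edgeR adjusted p = 0.00251 and 0.0404). Thbs2 was at 162, 224 and 183 CPM in Ensure fasted 7, 8 and 17 but at 67.8 and 42.6 CPM in the tract-rich Ensure fasted 2 and 5, against 31.4 to 60.9 CPM fed. Antxr1, a collagen-binding receptor, rose (0.71 ± 0.23, edgeR adjusted p = 0.038). In the TGF-beta list Ltbp1 (0.66), which stores the latent factor, Tgfb3 (0.53) and Tgfb2 (0.71) rose and Smad2 (-0.38), a signal carrier, fell (edgeR adjusted p = 0.00594 to 0.0355). EdgeR called 0 of 9 processing and 0 of 5 cross-linking genes, with 2 and 1 at an unadjusted p under 0.05, beside 5766 of 16015 genes. DESeq2 called 0 in either list, and limma voom 1 processing gene higher and 1 lower and 3 cross-linking genes higher and 1 lower. Of the cell-type lists, 9 of 10 smooth muscle genes (DESeq2 3, limma voom 2) and 4 of 10 stromal genes (DESeq2 5, limma voom 7) were called higher in this comparison. Over all genes edgeR called 10.6% higher, DESeq2 14.8% and limma voom 18.7%. The smooth muscle sum was highest in Ensure fasted 5, where Myh11, the smooth muscle myosin, was at 3580 CPM against 51.3 to 152 CPM in the other 4 libraries. Ensure fed libraries had Myh11 at 75.6 to 146 CPM, so the other 4 fasted libraries overlapped them. Synpo2 was the 1 gene of the 10 in the list whose groups did not overlap on the higher side (5.68% of all genes). It was at 244 to 395 CPM in Ensure fasted libraries, highest in Ensure fasted 7, and at 111 to 186 CPM fed. The part of either cell type in these results was not tested.

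Ratios between chains, each per length of mRNA, showed which collagens kept step. They are descriptions, chosen with earlier results known, and were given no test. Col4a1 over Col4a2, the pair with the shared start region shown above, stood at 1.18 to 1.42 in all 19 libraries, the narrowest relative range of the 12 ratios examined. Col6a1 over Col6a2 was lower with Ensure without overlap in each state, at 0.844 to 0.931 against 0.933 to 1.12 fed and 0.852 to 0.995 against 1.03 to 1.37 fasted. Col1a1 over Col1a2 was at 0.579, 0.444, 0.626 and 0.431 in HFD fed and 0.481, 0.549, 0.458 and 0.501 in HFD fasted libraries. In Ensure libraries it was at 0.666 (lowest), 0.696 (median) and 0.747 (highest) fed and at 0.768, 0.762, 0.627, 0.687 and 0.621 fasted. The diets did not overlap in either state, and Ensure fed 18, the Ensure library in the lane of the HFD libraries, was at 0.725.

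Other ratios separated fed from fasted libraries. Col5a1 over Col5a2, chains of the same type V trimer, was at 1.23, 1.23, 1.25 and 1.13 in HFD fed and at 0.864, 1.03, 0.969 and 0.653 in HFD fasted libraries. With Ensure it was at 1.18 (lowest), 1.30 (median) and 1.55 (highest) fed and at 1.03, 1.02, 0.845, 0.721 and 0.880 fasted. All 9 fasted libraries were below all 10 fed libraries, over both diets and in lanes 5, 6 and 7. Col15a1 over Col18a1 went from 2.17 to 2.83 to 1.64 to 2.00 with HFD and from 3.62 to 5.25 to 1.5 to 2.69 with Ensure. It was lower fasted than fed within each diet without overlap. Col1a1 over Col15a1 moved the opposite way, from 0.328 to 0.555 to 0.740 to 1.51 with HFD and from 0.427 to 0.718 to 0.859 to 2.19 with Ensure.

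**Figure D5:**
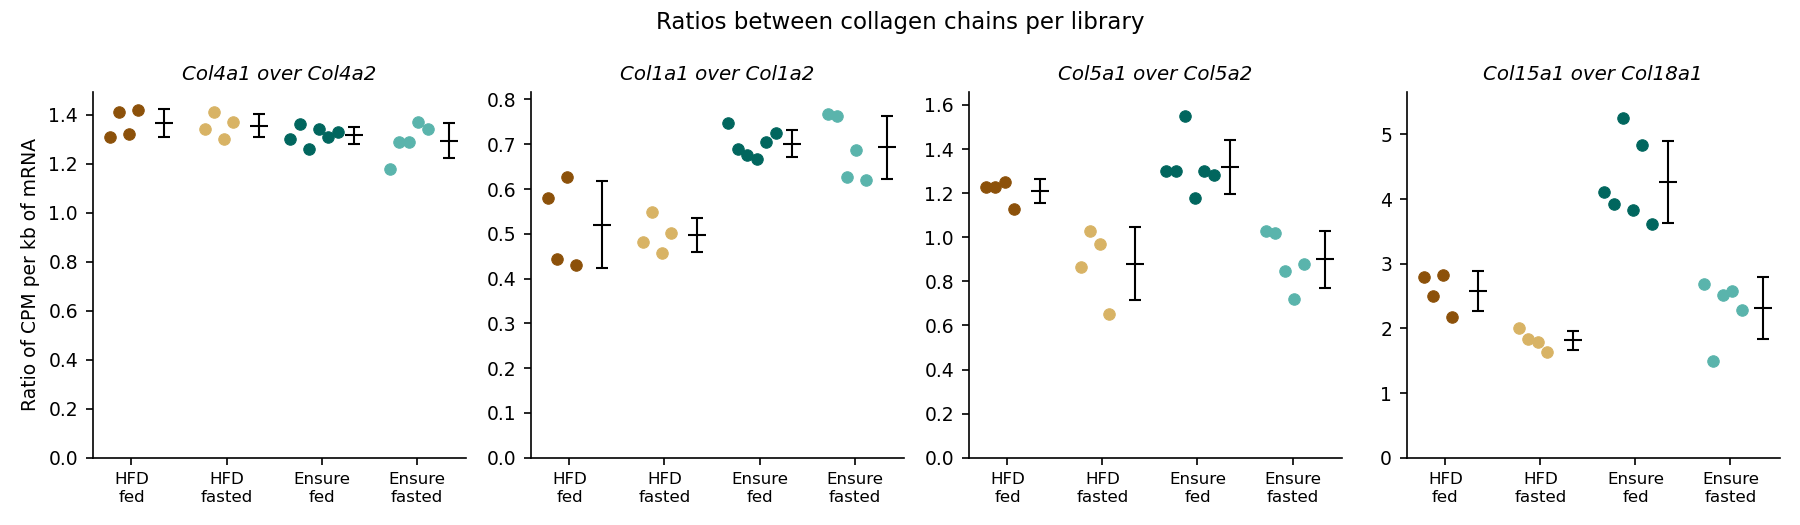
Ratio of CPM per kb of mRNA (y axis) between pairs of collagen chains in each library (points) by group (x axis), with mean and SD as black bars. Col4a1 over Col4a2 stayed at 1.18 to 1.42, Col1a1 over Col1a2 separated the diets within each feeding state but not across states (HFD fed 25 at 0.626, Ensure fasted 17 at 0.621), and Col5a1 over Col5a2 was at 0.653 to 1.03 in fasted and 1.13 to 1.55 in fed libraries.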

How the data were processed

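RNA was extracted with RNeasy and poly-A selected, and TruSeq libraries were sequenced on a HiSeq2000, per the labels' protocols. The authors deposited raw read counts per gene for each library. Tools named per the submitters' processing notes are TopHat2 2.1, HTSeq 0.6.1 and bcl2fastq 1.8.4, with mouse genome build mm9. Mapping settings and strandedness were not found in these sources. Rows that name no gene were left out. Ambiguous reads and reads without a unique alignment were counted apart from genes, so overlapping or near-identical genes may be undercounted. With strandedness unknown, antisense reads may be included. Groups were taken from the labels.

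All 19 libraries, of 12.82 to 22.55 M gene counts, were fitted together in edgeR 4.0.16 (R 4.3.3; 4 groups, TMM scaling, quasi-likelihood test). The filter at a minimum count of 10 left 16015 genes for Benjamini-Hochberg adjustment, with a threshold of 0.05 for calls. The fit was tested on simulated data. Errors of fold changes are SE and errors of levels SD. Within-group pairs of libraries (37) differed by far more than counting noise (chi-square per gene 7.04 to 288.42). Alternatives were DESeq2 1.42.0 and its size factors, library size alone, limma 3.58.1 voom with quality weights, no filter, a minimum count of 50, sequencing lane added to the model, a fit of only the groups compared, fits without 5 or 8 libraries, and each library left out.

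Collagens were named where edgeR called them or where they are main chains of fat matrix (Col1a1, Col1a2, Col3a1, the type V chains, Col4a1, Col4a2, Col15a1, Col18a1, Col6a1 to Col6a3, Col12a1 and Col14a1), and from each companion list up to 4 called genes by smallest p. Col6a4, Col4a3, Col4a4 and Col4a6 were named after their values were seen. Members, lists and library sets were chosen with earlier results of these data known. CPM per kb used mRNA lengths of the GENCODE M21 transcript with the longest coding sequence (GRCm38, a later build than mm9). Promoter windows came from RefSeq (GRCm38.p6), matched by symbol for 35 of 44 collagens.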

Additional observations from a re-analysis of the deposited data

Results flagged for a closer look

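For 25 collagens and 3 class sums, each in 4 groups (112 checks), a library was marked where its gap to the nearest other library of its group, divided by the group's range, passed Dixon's critical value at the 95% level. That level is nominal here, because genes of the same library are not independent and some of the collagens were included because edgeR called them. No excess over chance can therefore be read from the number of marks. In all, 18 checks were marked. Of these, 9 were in Ensure fasted 5. That library was low for the matrix collagens Col5a1 (267.0 CPM), Col5a3 (598.0), Col6a1 (635.0), Col6a2 (658.0) and Col15a1 (355.0) and for the sum of the other collagens (2289 CPM). It was high for Col7a1 (33.6 CPM), Col23a1 (91.5) and Col24a1 (5.85). Its adipocyte sum was the lowest (10277 CPM) and its epididymis and sperm sum the highest (11501 CPM) of the 19 libraries, and the part of either in these values was not tested.

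Other tract-rich libraries stood apart for scarce collagens: Ensure fed 10 for Col7a1 (2.31 CPM) and Col24a1 (1.33), HFD fasted 24 for Col22a1 (8.43) and Ensure fasted 2 for Col22a1 (15.2). HFD fasted 28, with the highest macrophage sum, was low for Col14a1 (32.8 CPM), and Ensure fasted 8 was high for Col12a1 (95.5 CPM). Col20a1 was high in HFD fed 27 (5.07 CPM) and Ensure fasted 17 (13.4 CPM), and Col28a1 in Ensure fed 9 (17.4 CPM).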

How the results depend on the processing

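Collagens called by edgeR numbered 1 after fasting with HFD, 9 after fasting with Ensure, 0 for the difference of responses, and 7 and 10 between diets, fed and fasted. After fasting with HFD there were 0 without the filter, with lane as a term and in the compared groups alone, 2 without the 5 tract-rich libraries, 5 by DESeq2 and 10 by limma voom. In the first 3 of these, genes called higher and lower were 24 and 139 of 21146, 10 and 52 of 16015, and 0 and 1 of 14910. After fasting with Ensure there were 4 at a minimum count of 50, 2 with lane as a term, 5 in the compared groups alone, and 2 and 1 without the 5 and the 8 libraries. At a minimum count of 50 only 4 of the 9 called collagens were tested, and all 4 stayed called. In the compared groups alone 7 of the 9 were tested and 4 stayed called. Genes called higher and lower in these 2 settings were 1602 and 1512 of 13525, and 1668 and 1934 of 14734. Limma voom called 3 for the difference. Between fed diets there were 4 without the filter, 12 by DESeq2 and in the compared groups alone, 17 by limma voom, 0 with lane as a term and 3 without the 8 libraries. Genes called higher and lower were 289 and 283 of 21146 without the filter, and 2 and 0 of 16015 with lane as a term. Between fasted diets there were 16 by DESeq2, 23 by limma voom and 0 with lane as a term or in the compared groups alone. Those last 2 settings called 0 of 16015 and 1 of 15431 genes. Leaving out each library gave 0 to 4 (HFD fasting), 5 to 11 (Ensure fasting), 0 throughout (difference), 1 to 13 (fed diets) and 3 to 15 (fasted diets). The highest counts of 4, 13 and 15 came without Ensure fasted 5 and that of 11 without Ensure fasted 8. HFD fasting fell to 0 in 14 of the 19 such fits. Ensure fasting fell to 5 without Ensure fed 1 or 12. Fed diets fell to 1 without HFD fed 22 or 27, 2 without Ensure fed 1, 3 without Ensure fed 10 and 4 without HFD fed 21 or Ensure fed 12. Fasted diets fell to 3 without HFD fasted 23 and 5 without HFD fasted 28, Ensure fasted 7 or Ensure fasted 17. Col23a1 after fasting with Ensure reversed to -0.03 (log2) without the 5 tract-rich libraries. The cause was not tested in any of these cases. The class sums moved by less than their SD under library size alone. They also did so without the 5 tract-rich libraries and with each library left out. In those 2 settings a group mean could not have moved by more than its SD, so they say nothing on how stable the sums are. No paired analysis was possible because the groups share no replicate numbers. With 4 to 6 libraries a group, collagens under about 1 CPM rest on few counts.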
